A study of Caenorhabditis elegans with 2 samples.

Results

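Of the 1869 reproducible MADF-10 peaks, 298 lay at promoters shared by at least 2 protein-coding genes. A peak was counted here when its summit, the position of highest signal, lay on a nuclear chromosome between 1000 bp before and 200 bp past annotated transcript starts of 2 or more genes, and more than 200 bp away from any tRNA gene. Of the 298 peaks, 270 reached genes on opposite strands and were called divergent, and 28 reached genes on 1 strand only and were called same-strand. All 270 divergent peaks lay at head-to-head pairs, in which the minus-strand gene started to the left of the plus-strand gene. Of all divergent regions called from both replicates pooled, reproducible or not, 1366 of 1376 did so too, so this is not particular to the peaks. The 298 peaks reached 604 genes, 550 from divergent and 54 from same-strand peaks, and no gene was reached by both kinds. Of the 298 peaks, 278 reached 2 genes and 20 reached 3, the most found. Another 634 reproducible nuclear peaks outside tRNA genes reached a single gene, and 632 reached none.

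The peaks came from chromatin immunoprecipitation with sequencing (ChIP-seq), in which an antibody against GFP recovered DNA bound by MADF-10 that carried GFP and FLAG at its C terminus. MADF-10 is a worm protein with a MADF domain, a DNA-binding fold related to that of Myb. The libraries came from whole hermaphrodite young adults of the Caenorhabditis elegans strain OP508, genotype unc-119(tm4063) III; wgIs508, grown for 68 h after starved L1 larvae had been synchronised by bleaching. There were 1 group, 2 biological replicates and no second condition. The tagged protein comes from a transgene in 1 line, the genotype names no change of the native gene, and whole animals mix all tissues.

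Worm genes are packed closely, so that the starts of neighbours on opposite strands often share a short stretch of open DNA. Neighbours on the same strand can form an operon, a run of genes transcribed from the promoter of the leading gene, whose later messages are separated by trans-splicing. A peak near the start of an operon's leading gene can thus lie within reach of the start of the next gene, which need not have a promoter there.

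The authors' lists held 25924 regions in replicate 1, 30000 in replicate 2 and 30000 in both pooled, on build ce11, each with a signal value that can be compared only within its list. The reproducible list was the strongest 1869 of the pooled list by signal, so being reproducible is here the same as having a pooled signal of at least 92.3. The number of reads per library was not given in the sources used here. As background served pooled regions with a signal in the lower 50% that overlapped no reproducible peak, called weak regions below; 461 of them lay in shared promoters. Of the 29436 nuclear regions of the pooled list outside tRNA genes, 1564 were reproducible (5.31%). All shares below have exact binomial 95% intervals, which cover counting error only, and regions are not replicates of a condition, so p-values describe these lists.

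The sequences under 6 of the strongest summits show what the bound stretches look like. They are the 4 strongest divergent peaks with the summit between the starts and the 2 strongest same-strand peaks, with the same-strand peak at F20C5.11 and klp-11 passed over because its window lay largely in an annotated UTR. Each is the plus strand of ce11 from RefSeq, the summit base with 50 bp to either side. Capitals mark 6-base sequences, on either strand, that were more frequent at divergent peaks than at weak divergent regions, as described further on.
tasp-1 and K01G5.10, divergent, chrIII:10759200-10759300: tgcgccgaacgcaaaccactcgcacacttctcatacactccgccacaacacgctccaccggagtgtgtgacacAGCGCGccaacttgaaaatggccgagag
rpl-15 and K11H12.8, divergent, chrIV:654873-654973: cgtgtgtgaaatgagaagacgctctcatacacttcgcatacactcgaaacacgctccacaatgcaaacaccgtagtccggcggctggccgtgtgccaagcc
Y17G9B.5 and rpl-20, divergent, chrIV:4750013-4750113: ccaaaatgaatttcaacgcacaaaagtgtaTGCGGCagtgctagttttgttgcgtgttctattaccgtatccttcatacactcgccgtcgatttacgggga
tag-340 and nhl-2, divergent, chrIII:4899867-4899967: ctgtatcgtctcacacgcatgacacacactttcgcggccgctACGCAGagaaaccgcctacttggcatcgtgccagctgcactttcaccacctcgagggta
sec-61.G and F32D8.13, same-strand, chrV:10897321-10897421: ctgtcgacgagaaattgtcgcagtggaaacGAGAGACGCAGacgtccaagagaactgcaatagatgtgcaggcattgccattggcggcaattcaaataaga
rpl-29 and thoc-7, same-strand, chrIV:13881915-13882015: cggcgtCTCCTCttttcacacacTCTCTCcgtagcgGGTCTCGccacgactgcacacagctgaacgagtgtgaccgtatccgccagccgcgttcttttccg

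None of the 6 windows overlapped coding sequence, and the rpl-15 window held none of the marked sequences. The windows also shared runs of 8 or more bases, on either strand. The tasp-1 and rpl-15 windows shared AACACGCTCCAC, found in 2 of 270 divergent and 1 of 634 single-gene windows. The tasp-1 and rpl-20 windows shared TCATACACTC and the rpl-15 and rpl-20 windows shared CATACACTCG, each found in 2 divergent and 0 single-gene windows. The rpl-29 window shared GAGTGTGTGA with that of tasp-1 (2 divergent and 4 single-gene windows), GTGTGTGAAA with that of rpl-15 (2 and 1) and ACCGTATCC with that of rpl-20 (2 and 1). The tag-340 window shared AGTGTGTG with that of tasp-1 and its reverse complement with that of rpl-29. This run was no more frequent at divergent than at single-gene peaks, with 7 divergent (2.59%) and 23 single-gene windows (3.63%). Of 372 weak divergent windows, 4 (1.08%) held it, 1 held ACCGTATCC and 0 held any other of these runs. These runs were picked out from these windows and were not tested.

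Promoter peaks of MADF-10 reached several genes more often than weak promoter regions did. Of the 932 reproducible peaks in any promoter window outside tRNA genes, 298 were at shared promoters (32.0%, interval 29.0 to 35.1). Among weak promoter regions the number was 461 of 4246 (10.9%, 9.94 to 11.8), and the log2 odds ratio was 1.95 (Fisher's exact test, 2-sided, adjusted over 11 comparisons, p = 5.31e-51). The strongest 1869 regions of each replicate's own list gave 30.03% ± 1.03 (SD, n = 2) against 11.7% ± 0.633 for weak regions of the same list. In both replicates the share at peaks was above that of the weak regions.

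Most of the shared promoters were divergent, more so than in the background. Divergent peaks made up 270 of the 298 (90.6%, 86.7 to 93.7), and divergent regions 372 of the 461 weak regions at shared promoters (80.7%, 76.8 to 84.2), with a log2 odds ratio of 1.21 (Fisher's exact test, adjusted p = 0.000429). The replicates' own lists gave 89.9% ± 0.690 (SD, n = 2) and 82.9% ± 3.23 for weak regions. This call rested on replicate 2: without it, that is in the list of replicate 1 alone, the log2 odds ratio was 0.56 and the adjusted p 0.187.

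Read the other way, a pooled region at a divergent promoter was reproducible more often than one at any other kind of promoter. At divergent promoters 270 of 1376 pooled regions were reproducible (19.6%, 17.6 to 21.8), at same-strand promoters 28 of 241 (11.6%, 7.86 to 16.4), at promoters of a single gene 634 of 8911 (7.11%, 6.59 to 7.67) and outside promoters 632 of 18908 (3.34%, 3.09 to 3.61), beside the 5.31% over all. Divergent exceeded single-gene promoters with a log2 odds ratio of 1.67 (Fisher's exact test, adjusted p = 6.86e-42). Divergent exceeded same-strand promoters with a log2 odds ratio of 0.89 (Fisher's exact test, adjusted p = 0.00522), and same-strand exceeded single-gene promoters with 0.78 (adjusted p = 0.0178). In the replicates' own lists the shares were 18.5% ± 0.0920 (SD, n = 2) for divergent, 13.5% ± 3.69 for same-strand and 7.73% ± 0.145 for single-gene promoters. The same-strand share, from few regions, moved most between the replicates. Without replicate 2 the divergent share did not exceed the same-strand share past the threshold (exact test, log2 odds ratio 0.25, adjusted p = 0.649), and without replicate 1 the same-strand share did not exceed the single-gene share past it (0.57, adjusted p = 0.0948).

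**Figure D1:**
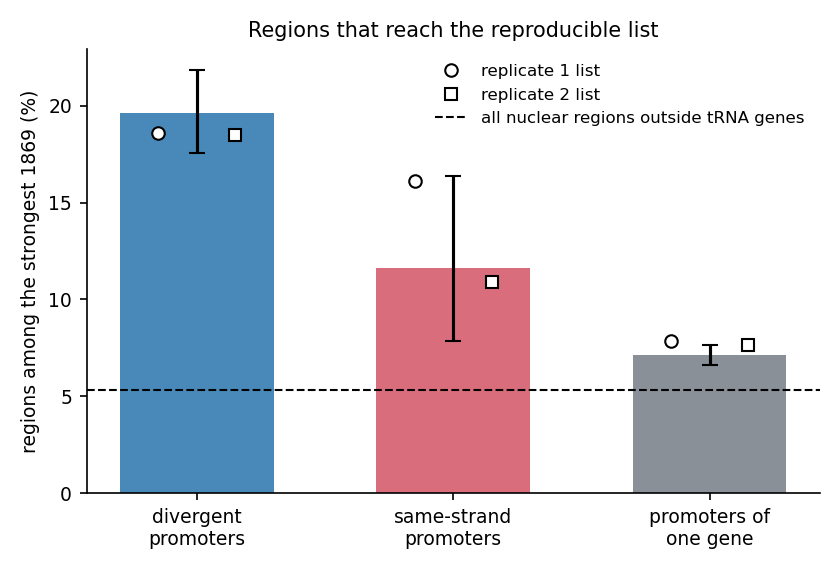
Share of regions that were among the strongest 1869, in percent, for regions at divergent, same-strand and single-gene promoters. Bars are the pooled list with exact binomial 95% intervals, circles and squares are the lists of replicates 1 and 2, and the dashed line is the 5.31% over all regions; the divergent bar stands at 19.6%, above both others.

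Divergent promoters had the higher share at each distance from the start. Regions with a summit 300 to 200 bp upstream of the nearest start were reproducible in 28.5% of cases at divergent promoters (59 of 207), 21.4% at same-strand promoters (6 of 28) and 12.1% at single-gene promoters (117 of 967). Between 100 and 0 bp upstream the shares were 21.5% (75 of 349), 12.8% (5 of 39) and 6.19% (70 of 1130). Past the start, within 200 bp downstream, they were 6.07% (15 of 247), 5.00% (4 of 80) and 2.46% (41 of 1668). Divergent stood above same-strand and same-strand above single-gene promoters in all 6 distance bins. The intervals of divergent and single-gene promoters overlapped only between 1000 and 500 bp upstream, while those of same-strand promoters overlapped both others in every bin. Among regions within 300 bp upstream of a start, a limit chosen after the data were seen, the log2 odds ratio of divergent against same-strand promoters was 0.62, which missed the threshold (Fisher's exact test, adjusted p = 0.178).

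**Figure D2:**
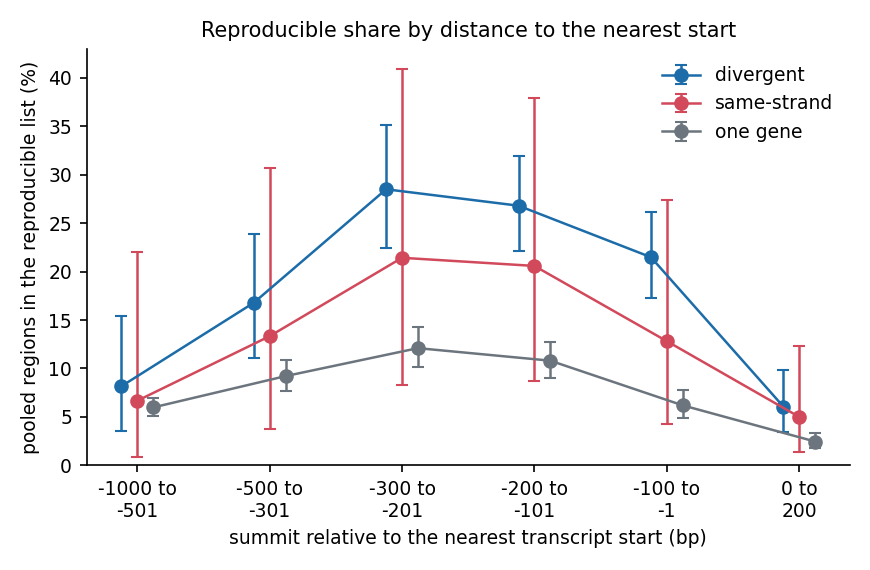
Percent of pooled regions that were reproducible, against the position of the summit relative to the nearest transcript start in bp (negative is upstream), for divergent, same-strand and single-gene promoters. Points are shares and bars exact binomial 95% intervals; the divergent share was highest, at 28.5%, 300 to 200 bp upstream, and dropped past the start.

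Measured against the DNA available, the ranking was the same, but the divergent and same-strand intervals overlapped and no test was run. Stretches in reach of 2 or more genes on opposite strands covered 2.35 Mb and held 115 peaks per Mb (exact Poisson 95% interval 102 to 130). Stretches in reach of several genes on 1 strand covered 0.363 Mb and held 77.1 peaks per Mb (51.2 to 111), and single-gene windows held 26.9 peaks per Mb (24.9 to 29.1). Even so, most shared promoters held no reproducible peak. A peak summit lay in 266 of 2946 divergent stretches (9.03%, 8.02 to 10.1) and in 28 of 868 same-strand stretches (3.23%, 2.15 to 4.63). Divergent stretches were longer, with a median of 844 bp against 328 bp.

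Among the peaks, all chosen by their pooled signal, no difference in signal between divergent and same-strand peaks passed the test. Pooled signal ran from 92.3 through a median of 147 to 962 in divergent peaks and from 94.6 through a median of 160 to 3115 in same-strand peaks, and the median of single-gene peaks was 133. Of the divergent peaks 152 of 270 (56.3%, 50.2 to 62.3) and of the same-strand peaks 17 of 28 (60.7%, 40.6 to 78.5) lay above 136, the median of all reproducible nuclear peaks outside tRNA genes; the log2 odds ratio of -0.26 missed the threshold (Fisher's exact test, adjusted p = 0.848), and with 28 same-strand peaks the intervals do not show the kinds to be alike. Divergent peaks lay above that median more often than the 305 of 634 single-gene peaks that did (48.1%, 44.2 to 52.1), with a log2 odds ratio of 0.47 (Fisher's exact test, adjusted p = 0.0337). That difference was gone among the stronger 50% of the reproducible peaks, where the log2 odds ratio was 0.02. Both comparisons used the value that chose the peaks, after the cut on it. They describe signal past that cut only and cannot tell whether the kinds of promoter differ in signal.

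All 298 peaks had a region in both replicates, whose lists run far past their strongest 1869 regions. This and the counts that follow were not computed for the other reproducible peaks. They thus show nothing particular to shared promoters. Among the strongest 1869 regions of replicate 1 were 221 of the 270 divergent and 24 of the 28 same-strand peaks, and among those of replicate 2 were 244 and 25. Both at once held for 200 divergent (74.1%, 68.4 to 79.2) and 21 same-strand peaks (75.0%, 55.1 to 89.3), with a log2 odds ratio of -0.07 (Fisher's exact test, adjusted p = 1.0). Across the 270 divergent peaks Pearson's r between the replicates' log2 signals was 0.727 and Spearman's rho 0.676, and across the 28 same-strand peaks r = 0.937 and rho = 0.860, where r includes the far-off peak at klp-11; both replicates went into the pooled list that chose the peaks. The weakest in replicate 1 was the divergent peak of mrpl-17, a mitochondrial ribosomal protein gene, and vbh-1, with a signal of 8.98 and rank 17464 there, and 89.0 in replicate 2.

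**Figure D3:**
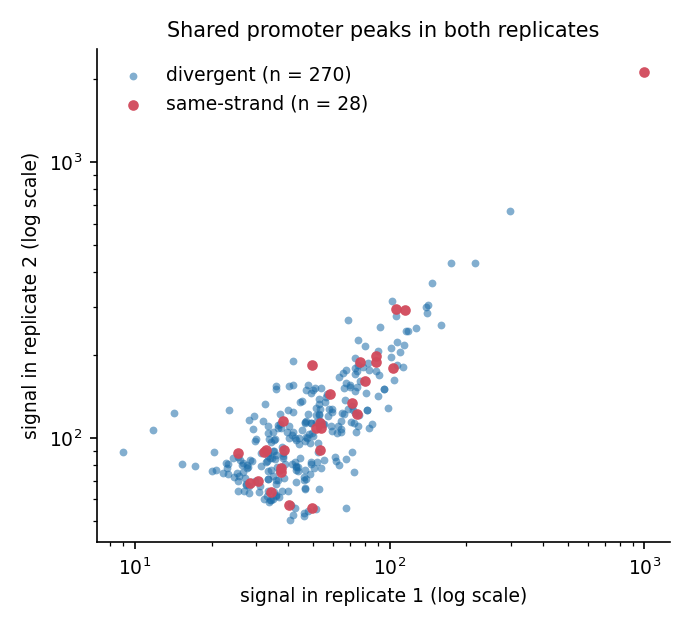
Signal of each shared promoter peak in replicate 1 (x axis) and replicate 2 (y axis), both on log scales, for 270 divergent and 28 same-strand peaks, 1 point per peak. The same-strand peak at F20C5.11 and klp-11, at 995 and 2133, stands apart from all others in both replicates.

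Summits at divergent promoters lay between the starts of the genes. This held for 255 of 270 divergent peaks (94.4%, 91.0 to 96.9) and for 275 of 371 weak head-to-head regions (74.1%, 69.4 to 78.5), with a log2 odds ratio of 2.57 (Fisher's exact test, adjusted p = 6.75e-12); in the replicates' own lists it was 94.2% ± 1.02 (SD, n = 2) against 72.0% ± 1.22. By the counting rule, the only other place for a summit at a head-to-head pair was within 200 bp past a start. Single-gene peaks also lay mostly before the start, with 41 of 634 summits at or past it. A summit before the start is thus not shown to be particular to divergent promoters. The starts of divergent pairs were a median of 531 bp apart at peaks (quartiles 350 and 784, range 14 to 1658). At weak regions the median was 673 bp (quartiles 400 and 1012). The closest starts, 14 bp apart, were those of F25H9.7 and F25H9.6, under a signal of 183. The median distance from the summit to the nearer start was 158.5 bp and to the farther start 378.5 bp. In 106 of the 270 peaks both starts lay within 300 bp. The nearer start was on the plus strand in 144 of 270 peaks (53.3%, 47.2 to 59.4), an interval that includes 50%. Of the 255 summits between the starts, 114 (44.7%, 38.5 to 51.0) lay in the central part of the gap, past 33.3% of its length from either start.

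**Figure D4:**
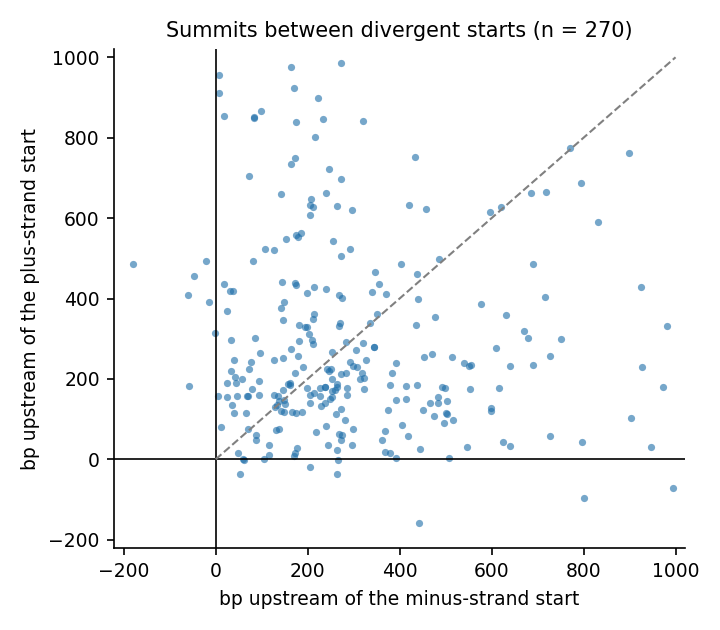
Position of the summit of each of the 270 divergent peaks, given as bp upstream of the nearest minus-strand start (x axis) and of the nearest plus-strand start (y axis). Points right of and above the black lines lie between the starts (255 of 270), and the dashed line marks equal distance from both; points scatter to both sides of it.

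Same-strand peaks had another layout. The median distance to the nearer start was 128.5 bp, but the farther start was a median of 747.5 bp away. At 12 of 28 peaks the annotated bodies of the genes overlapped, with F20C5.11 and klp-11 counted for both of their peaks. In the other 16, the space between the end of the upstream gene and the start of the downstream gene had a median of 114 bp (quartiles 105 and 130, range 47 to 471). Close spacing of that order is typical of worm operons; whether these pairs are operons was not looked up here. Of 89 weak same-strand regions, 51 lay at genes with separate bodies, with a median space of 106 bp (quartiles 87.0 and 182). Close or overlapping bodies are thus not shown to be particular to the peaks. The summit lay in no gene within reach in 22 of 28 same-strand and 236 of 270 divergent peaks.

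The strongest divergent peak, on chromosome III with its summit at 10759250, lay 57 bp upstream of tasp-1, which encodes a threonine aspartase, and 728 bp upstream of K01G5.10 on the other strand. Its pooled signal was 962, against 298 for replicate 1 and 664 for replicate 2 in their own lists. The next, on chromosome IV at 654923, had signals of 650, 216 and 433 in the same order and lay 347 bp upstream of rpl-15, a gene for a protein of the large ribosomal subunit, and 467 bp upstream of K11H12.8. The one after it, at 4750063 on chromosome IV, had signals of 612, 174 and 433 and lay between Y17G9B.5, 177 bp away, and the large-subunit gene rpl-20, 285 bp away. All 3 were higher than any other divergent peak in both replicates.

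The following peaks reached genes of ribosomal proteins or of other proteins that act in translation. The peak of pab-1, the gene of the protein that binds the poly(A) tails of messages, and of the ribosomal protein gene rpl-30 had signals of 508 pooled, 147 for replicate 1 and 366 for replicate 2, with its summit 14 bp inside pab-1. This peak lay 1.03 kb from madf-10, the gene whose tagged copy the strain carries, and 4 shared promoter peaks lay within 50 kb of that gene. That number was not compared with other regions or other stretches of the genome. The extent and copy number of the transgene were not given in the sources used here, and their part in these signals was not tested. The peak of hsr-9, the worm relative of the DNA damage protein 53BP1, and of the small-subunit gene rps-19 had 435, 140 and 298. The peak of iff-2, which encodes the translation factor eIF5A, and of F54C9.14 had 427, 140 and 285. The peak 24 bp upstream of the large-subunit gene rpl-12 and 369 bp upstream of lin-54, whose product brings the DREAM repressor complex to DNA, had 414, 102 and 315. The small-subunit gene rps-1 shared a peak of 377, 127 and 250 with ifet-1, a repressor of mRNA translation related to the eIF4E transporter. The gene drr-2, whose product resembles the initiation factor eIF4H, shared a peak of 385, 106 and 278 with set-16, a histone H3 lysine methyltransferase of the MLL family.

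The remaining peaks among the 12 strongest divergent ones reached these genes. The peak of tag-340 and nhl-2, a TRIM-NHL protein that works with microRNAs, had signals of 446 pooled, 142 for replicate 1 and 303 for replicate 2. The peak of Y95B8A.6 and the phosphodiesterase gene pde-6 had 416, 158 and 257. The peak 181 bp upstream of lin-35, the worm retinoblastoma gene, and 237 bp upstream of vps-51, a subunit of a vesicle-tethering complex at the Golgi, had 363, 118 and 244. All 12 were among the strongest 1869 regions of both replicates.

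Only 1 same-strand peak was stronger than the strongest divergent one. It lay on chromosome IV at 8758843, 594 bp from the nearest start of F20C5.11 and 639 bp from one of klp-11, which encodes a motor subunit of kinesin-II. The summit lay inside the annotated bodies of both genes, which held for 1 of 28 same-strand and 0 of 270 divergent peaks. The pooled signal of this peak was 3115, with 995 for replicate 1 and 2133 for replicate 2. The same genes had another same-strand peak at 8762616, at other starts, with signals of 266, 76.6 and 189. Both lay at genes whose annotated bodies overlap.

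The next 4 same-strand peaks lay at pairs with separate bodies. The gene sec-61.G, for the gamma subunit of the protein-conducting channel of the endoplasmic reticulum, stood 228 bp from a summit with signals of 405 pooled, 115 for replicate 1 and 292 for replicate 2, and F32D8.13 began 828 bp from it. The large-subunit gene rpl-29 stood 260 bp, and thoc-7, of the mRNA export complex THO, 769 bp from a summit with 399, 106 and 295. The small-subunit gene rps-28 stood 431 bp and Y41D4B.4 850 bp from a summit with 287, 103 and 180. Y62F5A.12 stood 320 bp and the Mediator subunit gene mdt-8 983 bp from a summit with 285, 88.2 and 199. In these 4 pairs the bodies were 109 to 115 bp apart.

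Among the 12 strongest same-strand peaks were 3 more with separate bodies. C26B2.7 and elpc-4, an Elongator subunit gene, had signals of 229 pooled, 49.5 for replicate 1 and 184 for replicate 2. The genes rpac-19, for a subunit of RNA polymerases I and III, and tbg-1, for gamma-tubulin, had 203, 71.4 and 134, with bodies 91 bp apart. The genes ddp-1, for a small carrier of mitochondrial protein import, and ttc-7 had 202, 58.2 and 145, with bodies 47 bp apart. The other 3 had overlapping bodies: F55A11.6 with F55A11.11 at a pooled signal of 272, pqn-51 with K11D12.14 at 236, and egl-30, the Gq alpha subunit, with C53H9.4 at 198. In each of the 7 pairs with separate bodies the summit lay upstream of both starts.

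Genes of 25 functional lists, made from gene names, were counted under the peaks, without a test. Among all 19985 protein-coding genes, 2.75% were reached by a divergent and 0.27% by a same-strand peak. Of 84 cytosolic ribosomal protein genes, 31 (36.9%) were reached by divergent and 3 (rpl-29, rpl-23 and rps-28) by same-strand peaks, at pooled signals from 92.7 (rpl-9) to 650 (rpl-15). Divergent peaks reached 9 of 46 translation factor genes (19.6%), 14 of 80 genes of mitochondrial import and chaperones (17.5%), 10 of 70 respiratory chain and ATP synthase genes (14.3%) and 8 of 59 spliceosome genes (13.6%). They reached 7 of 56 DNA replication and repair genes (12.5%), 6 of 48 nuclear pore and transport genes (12.5%), 21 of 175 vesicle traffic genes (12%), 13 of 111 chromatin regulator genes (11.7%) and 12 of 106 cell cycle genes (11.3%). These are groups that most cells use, and each share lay above the 2.75% of all genes. Single-gene peaks reached further genes of each list, so the shares are not shown to be particular to divergent promoters. Reached by single-gene peaks only were 14 cytosolic ribosomal protein, 4 translation factor, 5 mitochondrial import and chaperone, 9 respiratory chain and 4 spliceosome genes. So were 5 DNA replication and repair, 3 nuclear pore, 17 vesicle traffic, 13 chromatin regulator and 7 cell cycle genes. The share of all genes reached by single-gene peaks only was not computed, so such counts, here and below, have no background beside them.

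Shares were lower in other lists of broad function. Divergent peaks reached 6 of 75 genes of RNA polymerase and general transcription, 8 of 128 ubiquitin and proteasome genes, 4 of 70 mitochondrial ribosomal protein genes, 2 of 31 aminoacyl-tRNA synthetase genes, 5 of 72 small RNA pathway genes, 3 of 50 germline regulator genes and 1 of 10 MADF genes, which was madf-11. Reached by single-gene peaks only were 14 ubiquitin and proteasome, 5 mitochondrial ribosomal protein, 4 small RNA pathway and 3 RNA polymerase and general transcription genes. So were 2 germline regulator, 1 MADF and 0 aminoacyl-tRNA synthetase genes. In the remaining lists the shares at divergent peaks lay below that of all genes. Divergent peaks reached 5 of 1308 chemoreceptor, 6 of 412 F-box and BTB and 2 of 312 collagen and cuticle genes. They reached 3 of 274 nuclear hormone receptor, 2 of 240 C-type lectin and 0 of 141 neuropeptide and insulin genes. Of 95 homeobox genes they reached 2, and of 91 histone genes 1. Single-gene peaks only reached 8 nuclear hormone receptor, 3 chemoreceptor, 3 F-box and BTB, 2 histone and 0 homeobox genes. The same held for 1 collagen and cuticle, 1 C-type lectin and 1 neuropeptide and insulin gene. Same-strand peaks reached 3 of 75 genes of RNA polymerase and general transcription (4%) and 3 of 175 of vesicle traffic (1.71%). They also reached 2 of 106 cell cycle genes (1.89%) and 1 of 59 spliceosome genes (1.69%). Among all genes the same-strand share was 0.27%, and these counts are small. Of the lists named in this paragraph, same-strand peaks reached none apart from RNA polymerase.

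Pairs in which both genes belonged to 1 list were few. Of the 298 peaks, 136 reached no gene on a list, 130 reached 1 and 32 reached 2 or more, but only 5 reached genes of the same list, all divergent. Small and large ribosomal subunit genes were paired at 3 of them: rpl-24.1 with rps-10 had signals of 129 pooled, 34.1 for replicate 1 and 96.7 for replicate 2, rpl-39 with rps-30 had 129, 49.1 and 80.4, and rps-14 with rpl-36 had 93.4, 33.8 and 59.7. The genes trap-3 and sec-61.B, both of the machinery that moves proteins into the endoplasmic reticulum, shared a peak of 345, 91.7 and 253. The splicing factor genes rsp-1 and rsp-2, which encode SR proteins, shared a peak of 202, 71.6 and 126. The ribosomal pairs thus lay below the median of divergent peaks, and the other pairs above it.

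The X chromosome held few divergent peaks. They numbered 10 of 270 (3.70%, 1.79 to 6.71), against 119 of 634 single-gene peaks (18.8%, 15.8 to 22.0), a log2 odds ratio of -2.59 (Fisher's exact test, adjusted p = 2.55e-10), and the replicates' own lists gave 3.40% ± 0.764 (SD, n = 2) and 18.99% ± 0.264. Of the same-strand peaks 1 of 28 lay on X (3.57%, 0.0904 to 18.3). X also held little of the available DNA: 5.40% of the divergent and 15.6% of the single-gene windows. The former lies within the interval of the divergent share and the latter just below that of the single-gene share. The test between the kinds made no allowance for this. On X 10 of 70 pooled regions at divergent promoters were reproducible (14.3%, 7.07 to 24.7). On the autosomes 260 of 1306 were (19.9%, 17.8 to 22.2), and the intervals overlapped. At single-gene promoters the order was the other way, with 119 of 1344 on X (8.85%, 7.39 to 10.5) and 515 of 7567 on the autosomes (6.81%, 6.25 to 7.40). Those intervals barely overlapped. Chromosome III held the most divergent peaks, 68 (25.2%), followed by chromosome I with 60 (22.2%). Chromosome V held 48 (17.8%), IV 45 (16.7%) and II 39 (14.4%). Of weak regions at shared promoters, 20.4% lay on III, 16.9% on I, 20.6% on V, 18.0% on IV and 15.2% on II. In the same order, the shares of single-gene peaks were 14.4%, 17.7%, 16.1%, 15.3% and 17.8%. These shares were not tested.

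In base composition the windows of 50 bp to either side of summits were richer in G and C at peaks of every kind than at weak regions. Their mean GC content was 48.6% ± 7.28 (SD over 270 peaks) at divergent, 47.2% ± 7.89 (28 peaks) at same-strand and 48.6% ± 8.18 (634 peaks) at single-gene promoters. It was 36.6% ± 9.04 at 372 weak divergent regions and 35.9% ± 8.03 in windows 300 bp to either side of the divergent summits.

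Of 11 chosen promoter sequences, searched on both strands, 0 passed the test between divergent and same-strand windows (Fisher's exact test, adjusted over the 11; 0 were under 0.05 before adjustment either). In the list of replicate 1 alone, without replicate 2, 0 passed and 3 were under 0.05 before adjustment. The GA repeat GAGAGA, for one, was in 47 of 270 divergent windows (17.4%) and 5 of 28 same-strand windows (17.9%). The TATA box TATAAA was in 5.93% of divergent and 7.14% of same-strand windows, the T block TTTTTTT in 7.41% and 3.57%, the GC box CCCGCCC in 1.85% and 3.57% and the E box CACGTG in 4.07% and 0%. The splice acceptor TTTCAG was in 7.04% and 0%, the CCAAT box CCAAT in 16.3% and 14.3%, GTTCGA, part of the B box of tRNA genes, in 4.44% and 7.14%, AGATGGC in 1.48% and 0% and TTTGAA in 17.4% and 32.1%. With 28 same-strand windows, a sequence in 0 of them could still be in up to 12.3% (exact 95% interval). Single-gene windows held 2 of the 11 more often than divergent windows, a comparison added after the data were seen. GAGAGA was in 173 of 634 single-gene windows (27.3%; Fisher's exact test, adjusted p = 0.0185), with 5.65% of weak divergent windows holding it. CTGCGTC was in 81 single-gene (12.8%) and 18 divergent windows (6.67%; exact test, adjusted p = 0.0395).

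Some 6-base sequences set divergent peaks apart from weak divergent regions. They were ranked by their excess on chromosomes I, III and V and then tested on the other nuclear chromosomes, where 94 divergent peaks and 147 weak divergent regions lay. Of 10 sequences, 8 were more frequent at peaks there past the threshold (Fisher's exact test, adjusted over the 10). GAGCGC was in 23 of 94 peak windows (24.5%) and 8 of 147 weak windows (5.44%; exact test, adjusted p = 0.000296). AGCGCG, marked in the tasp-1 window above, was in 20 (21.3%) and 6 (4.08%; exact test, adjusted p = 0.000296). CGAGAC, marked as its reverse complement in the rpl-29 window, was in 18 (19.1%) and 6 (4.08%; exact test, adjusted p = 0.000825). The others past the threshold were GAGACC (13.8% of peak and 3.40% of weak windows), CTCCTC (13.8% and 4.76%), GAGAGA (16.0% and 6.80%), GCCGCA (10.6% and 3.40%) and ACGCAG (16.0% and 5.44%). Several overlap each other, since GAGCGC and AGCGCG share 5 bases, as do CGAGAC and GAGACC, and ACGCAG lies within the reverse complement of CTGCGTC. All are richer in G and C than the weak windows were on average, and the part of base composition in these differences was not tested. As a set, the sequences past the threshold are not shown to be particular to divergent peaks. Over all chromosomes GAGAGA was in 17.4% of divergent and 27.3% of single-gene windows, and ACGCAG in 16.3% and 17.7%. CTCCTC was in 16.3% and 14.7%, and the rest were also more frequent in divergent windows.

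Against single-gene peaks, 0 of 10 sequences, ranked anew by their excess over these, passed (3 were under 0.05 before adjustment). AGCGCG had the lowest p, in 21.3% of divergent and 10.9% of single-gene windows (exact test, adjusted p = 0.0824), and GAGCGC, in 24.5% and 13.7%, had the same adjusted p. Over all chromosomes GAGCGC was in 57 of 270 divergent (21.1%), 3 of 28 same-strand (10.7%) and 11.8% of single-gene windows, and in 2.59% of the windows to either side of the divergent summits.

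The limits of the promoter window cut through a continuous range of distances. Just inside lay the divergent peak of C18D11.3 and maa-1, by 6 bp, with a pooled signal of 102, and that of R107.5 and cls-2, by 14 bp, with 190. Just outside lay the peaks of Y38F2AL.12 and vha-3, by 10 bp, with 145, and of attf-3 and mrpl-40, by 15 bp, with 143.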

How the data were processed

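Lists of regions from whole-animal ChIP-seq of tagged MADF-10 (1 group, 2 replicates numbered in the labels) were used as deposited for ce11. Per the deposited readme files, a replicate list came from that replicate and a control, the pooled list from both, and the reproducible list from these by a cut on the irreproducible discovery rate (IDR). The aligner, the caller, that cut and the depth were not given in the sources used here, and the control was not analysed here. The signal value of each region is the authors' own and was used only to rank and describe regions within a list.

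Summits were assigned to protein-coding transcript starts of Ensembl release 115 (WBcel235, the assembly of ce11), and sequence was read from RefSeq. Fisher's exact test, 2-sided, compared shares, with Benjamini-Hochberg adjustment over 11 comparisons and a threshold of 0.05; 4 of these, those against single-gene promoters, were added after the data were seen. Regions of 1 pair of libraries are not replicates, and nothing in the lists tells whether the spread between replicates is more than technical. The assignment of peaks and the tests were tested on simulated data. Python 3.11.15, numpy 2.4.6, scipy 1.17.1, pandas 2.3.3 and matplotlib 3.10.9 were used.

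The peaks and the lists of genes and sequences were chosen with earlier results of these data known. Named are the genes of the 12 divergent and 12 same-strand peaks of highest pooled signal, peaks with 2 or more genes of 1 list (at most 3 a list) and the 2 peaks on each side of the window limit; F25H9.7, F25H9.6, mrpl-17, vbh-1, rpl-9, rpl-23 and madf-11 were added after their values were seen. The 25 gene lists are name patterns and can take in genes of other function. Alternatives were other windows, only the outermost start of each gene, no limit at tRNA genes, pairs with overlapping bodies left out, the stronger 50% of peaks, each replicate alone, and regions close to a start.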

Additional observations from a re-analysis of the deposited data

How the results depend on the processing

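The shared share of promoter peaks, the excess of divergent over single-gene promoters, the summits between the starts and the low share on X kept their direction and their side of the threshold in all alternatives run. For the share on X, no alternative allowed for the DNA available there, 5.40% of divergent and 15.6% of single-gene windows. Of the alternatives, 132 values were on the same side as the main value, and the rest follow, as log2 odds ratios unless counts. The number of peaks was 195 with a window of 500 bp upstream and 100 bp downstream and 165 among the stronger 50% of peaks. Divergent against same-strand reproducibility missed the threshold with the 500 bp window (0.75), in the stronger 50% (0.67) and within 300 bp upstream of a start (0.62), and ran from 0.25 to 0.89 with 1 replicate left out. The divergent share of shared promoters ran from 0.56 to 1.18 with 1 replicate left out, below the threshold without replicate 2. Same-strand against single-gene reproducibility missed it with the 500 bp window (0.95), with no tRNA limit (0.65) and without pairs of overlapping bodies (0.82), and ran from 0.57 to 1.18 with 1 replicate left out. The share above the median signal, divergent against single-gene, missed it in the stronger 50% (0.019). Comparisons of divergent with same-strand peaks that never passed the threshold changed sign. The share above the median signal did so with the 500 bp window (0.21) and the 1500 bp window (0.15), and ran from -0.059 to 0.12 with 1 replicate left out. The share on X did so with the 500 bp window (-1.30), with no downstream part (-0.23) and with outermost starts (-0.018). The share in both top lists did so with no downstream part (0.24), outermost starts (0.20) and no overlapping bodies (0.36), and ran from -0.28 to 0.38 with 1 replicate left out. The cause was not tested. Summits between the starts could not be computed with no downstream part, which fixes them. No paired analysis was possible because there was only 1 group. Depth was not given, so its limit on weak regions is unknown, and the 28 same-strand peaks limit every comparison with them.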

Other observations

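Part of the divergent windows is marked as repeated sequence in the RefSeq genome. Within 100 bp of the summit, most bases were so marked at 57 of 270 divergent peaks (21.1%, exact 95% interval 16.4 to 26.5), 6 of 28 same-strand peaks (21.4%, 8.30 to 41.0), 54 of 634 single-gene peaks (8.52%, 6.46 to 11.0) and 97 of 372 weak divergent regions (26.1%, 21.7 to 30.9). These shares were computed after the data were seen and were not tested.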
